A study of Mus musculus with 11 samples.

Results

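Imprinted genes are transcribed mainly from the copy inherited from a single parent, and that choice is marked by DNA methylation laid down in the germ line. Many of them set how fast cells grow, divide or signal, and in hematopoietic stem cells several are known for keeping the cell out of the cycle. Of 10 imprinted genes chosen by symbol (Ndn, Cdkn1c, Grb10, Meg3, H19, Plagl1, Peg3, Igf2r, Impact, and Gnas), 7 were among the 12647 genes of the RNA-seq table, and H19, Plagl1, and Peg3 were not analysed here. All 7 passed the filter on low counts, which kept 12625 genes.

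RNA came from mouse Lin-Sca1+Kit+ cells (LSKs), the bone marrow fraction that holds hematopoietic stem cells and multipotent progenitors, and each of 3 genotypes, p53+/+, p53R248W/+, and p53-/-, was represented by 3 of the 9 libraries. Per the methods, p53+/+ mice carried the humanized p53 knock-in allele (HUPKI), p53R248W/+ mice carried this mutation on a single knock-in allele expressed from the endogenous promoter, and all mice were young and free of tumors. Labels give the C57BL/6 background for the libraries, and p53-/- mice lack p53 in every cell of the body. Nothing in the labels says that the libraries of a genotype came from separate animals, so that p-values measure the spread between these libraries. The counts do not separate the parental copies of a gene, and in bulk RNA fewer cells of a type and less RNA per cell cannot be told apart.

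Levels are given in CPM, read counts scaled to the size of the library with TMM factors that adjust for its composition, and levels of different genes are compared in RPKM, which also divides by gene length. Log2 fold changes, their SE, and adjusted p-values come from edgeR's quasi-likelihood test with Benjamini-Hochberg adjustment over all 12625 genes, and "called" means an adjusted p-value below 0.05. Total counts ranged from 18021375 to 29750702 per library. Cdkn1a, which encodes the p53-induced inhibitor p21, had 17.8, 8.27, and 10.9 CPM in p53-/- LSKs against 43.6 to 67.0 CPM in p53+/+ LSKs (log2 fold change -2.07, SE 0.30, adjusted p = 0.00914). Trp53 itself was still counted at 112 to 129 CPM in p53-/- LSKs, against 125 to 376 CPM in p53+/+ and 219 to 240 CPM in p53R248W/+ LSKs. Counts over the whole gene do not check a deletion of part of it. Per the paper, the HUPKI protein is mainly of human p53 sequence, whereas mm10, named in the processing notes, is a mouse genome. Trp53 levels may therefore not be comparable between genotypes, and the effect on its counts was not tested. All 9 markers of LSKs had a row, and their summed level lay between 3554 and 4765 CPM in every library. Within the 9, Hlf was called higher for p53-/- against p53+/+ (log2 fold change 1.14, adjusted p = 0.0242, edgeR), where 3.50% of all genes were called. Libraries of 4 markers lay above without overlap and those of 1 lay below, where 31.4% of all genes did not overlap. The sum therefore does not check the mix of cells within LSKs. The summed level of Y-linked genes was 110 CPM in p53+/+ replicate 2, 69.8 CPM in p53R248W/+ replicate 2, and 184 CPM in p53R248W/+ replicate 3, and at most 0.216 CPM in the other 6 libraries, which include every p53-/- library. Both replicate 2 libraries with Y-linked counts also held the female-specific RNA Xist, at 65 and 149 CPM.

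Per kilobase of the gene length in the table, Gnas stood highest in p53+/+ LSKs, with 106 ± 1.89 RPKM (SD, n = 3). Impact followed at 8.16 ± 0.729 RPKM, Ndn at 8.01 ± 1.60 RPKM, and Cdkn1c at 6.43 ± 2.25 RPKM, and these neighbours did not differ beyond their spread. Grb10 had 4.19 ± 1.04 RPKM, Igf2r had 2.52 ± 0.325 RPKM, and Meg3 had 0.0553 ± 0.0316 RPKM. In p53-/- LSKs Ndn stood at 16.6 ± 5.05 RPKM and Impact at 11.2 ± 0.796 RPKM, and the Ndn libraries (13.6, 22.5, and 13.8 RPKM) lay above those of Impact (11.7, 11.6, and 10.3 RPKM).

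Ndn encodes necdin, a protein of the MAGE family that is expressed from the paternal copy and is known to restrain cell cycle entry in hematopoietic stem cells. Per the paper, wild-type p53 activates its transcription in these stem cells, and by quantitative RT-PCR mutant p53 left its level there unchanged. Those cells are a narrower fraction than LSKs. The gene lies on chromosome 7 (GRCm38, chr7:62346569-62350262, plus strand). Ndn was counted at 16.2, 12.2, and 11.3 CPM in p53+/+ LSKs, at 17.0, 16.1, and 12.3 CPM in p53R248W/+ LSKs, and at 22.5, 37.1, and 22.8 CPM in p53-/- LSKs. Every p53-/- library lay above every library of the other genotypes, and p53+/+ and p53R248W/+ overlapped. For p53-/- against p53+/+ the log2 fold change was 1.05 (SE 0.26, 95% interval 0.48 to 1.63), with an adjusted p = 0.0506 from edgeR, just short of the call. For p53R248W/+ against p53-/- it was -0.86 (SE 0.26, adjusted p = 0.0915), and for p53R248W/+ against p53+/+ it was 0.20 (95% interval -0.38 to 0.77). The p53-/- result sat at the threshold: DESeq2 gave an adjusted p = 0.0042 and limma-voom 0.0611, edgeR with 6 libraries only 0.0382 and with a strict filter 0.0458, and without p53-/- replicate 2, the highest library, the log2 fold change was 0.78 (adjusted p = 0.146, edgeR). The call was gained without p53+/+ replicate 1 (adjusted p = 0.0495) or p53R248W/+ replicate 1 (adjusted p = 0.026).

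Cdkn1c encodes p57, a cyclin-dependent kinase inhibitor expressed from the maternal copy that is known to hold stem cells in quiescence. It lies at chr7:143458339-143461050 on the minus strand. Cdkn1c was counted at 17.5, 9.91, and 10.04 CPM in p53+/+ LSKs, at 12.5, 10.2, and 10.7 CPM in p53R248W/+ LSKs, and at 14.5, 24.3, and 14.6 CPM in p53-/- LSKs. The highest p53+/+ library lay among the p53-/- libraries, so that these groups overlapped, whereas every p53R248W/+ library lay below every p53-/- library. The log2 fold change was 0.51 for p53-/- against p53+/+ (SE 0.30, adjusted p = 0.328, edgeR) and -0.67 for p53R248W/+ against p53-/- (adjusted p = 0.224, edgeR). Replicate 2 was the highest p53-/- library for Cdkn1c as for Ndn. Over 625 bases the exons of Cdkn1c overlap those of the antisense gene Gm44732, and reads of the pair cannot be told apart unless strand was used. The kit named in the labels does not keep strand, the methods describe another preparation, and the counting setting is not given in the sources used here.

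Of a list of 6 other cyclin-dependent kinase inhibitors, 4 had a row. Cdkn1a was the one called for p53-/- against p53+/+, where edgeR called 3.50% of all genes. For Cdkn1b, which encodes p27, the log2 fold change was 0.39 (SE 0.37, adjusted p = 0.563, edgeR), with a p53-/- replicate 2 value of 13.6 CPM against 5.5 to 9.8 CPM in the remaining libraries. The log2 fold change was 0.20 for Cdkn2d (SE 0.20, adjusted p = 0.595, edgeR), also highest in p53-/- replicate 2 at 83.1 CPM, and -0.10 for Cdkn2c (SE 0.23, adjusted p = 0.828, edgeR).

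Grb10 encodes an adaptor that binds the insulin and IGF1 receptors and dampens their signal. It spans chr11:11930508-12038683 on the minus strand. Grb10 was counted at 24.8, 24.6, and 15.5 CPM in p53+/+ LSKs, at 20.8, 19.5, and 16.1 CPM in p53R248W/+ LSKs, and at 41.2, 30.4, and 38.1 CPM in p53-/- LSKs. All 3 p53-/- libraries lay above the other 6, and p53+/+ and p53R248W/+ overlapped. Grb10 was lower in p53R248W/+ than in p53-/- LSKs with a log2 fold change of -0.96 (SE 0.23, 95% interval -1.46 to -0.45, adjusted p = 0.0455, edgeR), and this was the single call among the imprinted genes described one by one. For p53-/- against p53+/+ the log2 fold change was 0.76 (SE 0.23, adjusted p = 0.0811, edgeR), and for p53R248W/+ against p53+/+ it was -0.20 (95% interval -0.70 to 0.30). The call was narrow: limma-voom gave an adjusted p = 0.052 and DESeq2 0.00243, and edgeR's call was lost when any of 7 libraries was left out (adjusted p 0.0563 and 0.0599 without p53+/+ replicates 1 and 2, 0.14 and 0.171 without p53R248W/+ replicates 2 and 3, and 0.122, 0.0689, and 0.116 without p53-/- replicates 1, 2, and 3). For p53-/- against p53+/+ Grb10 was called without p53R248W/+ replicate 1 (adjusted p = 0.0423). Among the 6 libraries without Y-linked counts, which hold 1 p53R248W/+ library, the log2 fold change for p53R248W/+ against p53-/- was -0.83 (adjusted p = 0.319).

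Of the 7 genes, Ndn and Grb10 had the highest log2 fold changes for p53-/- against p53+/+, and the RefSeq promoters of both (GRCm38.p6, a window of 300 bases that lies mostly before the transcript start given by RefSeq) are shown. RefSeq starts differ from those of the gene spans above, which are from GENCODE, so that both windows lie inside these spans. For Grb10 the table holds another promoter, chr11:12027922-12028221, which is not printed and held 9 CpG, more than 54.2% of all promoters, and no TGCCGC. Capitals mark CpG, the dinucleotide at which methylation is laid down. The Ndn window is chr7:62348027-62348326 on the plus strand, and the Grb10 window is chr11:12037371-12037670 on the minus strand.
Ndn: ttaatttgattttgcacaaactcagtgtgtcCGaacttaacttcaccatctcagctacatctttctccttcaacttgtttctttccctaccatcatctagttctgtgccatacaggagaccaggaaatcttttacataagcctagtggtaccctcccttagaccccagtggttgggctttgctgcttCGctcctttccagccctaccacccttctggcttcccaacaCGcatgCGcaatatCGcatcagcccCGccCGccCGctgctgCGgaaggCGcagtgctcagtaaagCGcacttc
Grb10: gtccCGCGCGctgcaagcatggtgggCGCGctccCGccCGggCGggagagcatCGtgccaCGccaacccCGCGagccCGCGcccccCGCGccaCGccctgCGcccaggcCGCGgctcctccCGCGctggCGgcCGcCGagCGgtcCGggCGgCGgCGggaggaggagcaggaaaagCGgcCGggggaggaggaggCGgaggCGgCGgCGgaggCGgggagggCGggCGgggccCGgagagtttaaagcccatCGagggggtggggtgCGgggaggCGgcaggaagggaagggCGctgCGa
The Ndn window held 11 CpG, more than 58.6% of the 32851 promoters of the table, and the printed Grb10 window held 45, more than 98.1% of them. The median over all promoters was 7. TGCCGC, the hexamer bound by the imprint-keeping factor ZFP57 when methylated, was found on either strand once in this Grb10 window and not in the Ndn window, and 11.6% of all promoters held it. No match to the p53 half-site motif was found in either window, which says only that its letters were not there, and 8.36% of all promoters held a match. DNA methylation was not measured in these libraries.

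Igf2r encodes the mannose 6-phosphate receptor that takes up IGF2 and delivers it to lysosomes, and in mice it is expressed from the maternal copy. It lies at chr17:12682406-12769664 on the minus strand. Igf2r was counted at 24.6, 23.7, and 19.2 CPM in p53+/+ LSKs, at 8.84, 12.4, and 15.6 CPM in p53R248W/+ LSKs, and at 14.2, 8.31, and 24.6 CPM in p53-/- LSKs. Each p53R248W/+ library lay below each p53+/+ library, and p53-/- libraries were spread over the range of both. For p53R248W/+ against p53+/+ the log2 fold change was -0.87 (SE 0.36, 95% interval -1.65 to -0.10), which did not pass the test after adjustment (adjusted p = 1.0, edgeR). The coefficient of variation in p53-/- LSKs was 52.4%, against 12.9% in p53+/+ LSKs.

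Grb10 and Igf2r act on the signal of insulin and the IGFs. Of 36 genes of the IGF and insulin receptor pathway, 23 had a row, and Igfbp7, which encodes a secreted IGF-binding protein, was the one called for p53-/- against p53+/+, a share close to the 3.50% of all genes called. Igfbp7 stood at 3.2, 3.0, and 4.5 CPM in p53+/+ LSKs and at 1.4, 0.5, and 0.7 CPM in p53-/- LSKs (log2 fold change -2.01, SE 0.48, adjusted p = 0.0448, edgeR). For Igf1, the ligand, the log2 fold change was 1.13 (SE 0.42, adjusted p = 0.14, edgeR), and for Igf1r, its receptor, 0.16 (SE 0.26, adjusted p = 0.752, edgeR).

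Meg3 is a long noncoding RNA expressed from the maternal copy of the Dlk1 domain on chromosome 12 (chr12:109541001-109571726, plus strand) and is known as a mark of long-term stem cells. It was close to the limit of these libraries, with 20, 5, and 16 counts in p53+/+, 23, 24, and 34 counts in p53R248W/+, and 3, 8, and 16 counts in p53-/- LSKs. In CPM these were 1.01, 0.25, and 0.89, then 0.83, 1.16, and 1.55, and then 0.16, 0.36, and 0.79. Meg3 exons overlap those of Gm26906, an RNA of the opposite strand without a row, over 1228 bases. Reads of this pair cannot be told apart unless strand was used. All p53R248W/+ values lay above all p53-/- values, the lowest of the former and the highest of the latter being 0.83 and 0.79 CPM, and p53+/+ overlapped both. The log2 fold change for p53R248W/+ against p53-/- was 1.41 (SE 0.74, adjusted p = 0.301, edgeR), and at this depth no difference was detectable. For Dlk1, its paternally expressed neighbour, the values were 1.6 to 2.7 CPM in p53+/+, 1.8 to 7.6 CPM in p53R248W/+, and 2.9 to 4.7 CPM in p53-/- LSKs.

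Impact encodes an inhibitor of the stress kinase GCN2 and is expressed from the paternal copy. Impact was counted at 29.8, 29.0, and 25.1 CPM in p53+/+ LSKs, at 30.4, 28.5, and 28.8 CPM in p53R248W/+ LSKs, and at 40.3, 39.7, and 35.3 CPM in p53-/- LSKs. The p53-/- libraries again lay above the other 6. The log2 fold change was 0.45 for p53-/- against p53+/+ (SE 0.17, adjusted p = 0.132, edgeR), 0.06 for p53R248W/+ against p53+/+ (95% interval -0.30 to 0.43), and -0.39 for p53R248W/+ against p53-/- (adjusted p = 0.206, edgeR).

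Gnas encodes the alpha subunit of the stimulatory G protein from a locus with several imprinted transcripts (chr2:174284320-174346744, plus strand), which a count per gene sums. Gnas was counted at 852, 879, and 879 CPM in p53+/+ LSKs, at 792, 878, and 859 CPM in p53R248W/+ LSKs, and at 718, 671, and 713 CPM in p53-/- LSKs. Here the p53-/- libraries were the lowest of all. The log2 fold change was -0.31 for p53-/- against p53+/+ (SE 0.14, 95% interval -0.61 to -0.02, adjusted p = 0.193, edgeR) and 0.27 for p53R248W/+ against p53-/- (adjusted p = 0.289, edgeR). Its exons overlap those of the antisense RNA Nespas over 988 bases and of Gm20721 over 1469 bases, neither of which has a row.

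**Figure D1:**
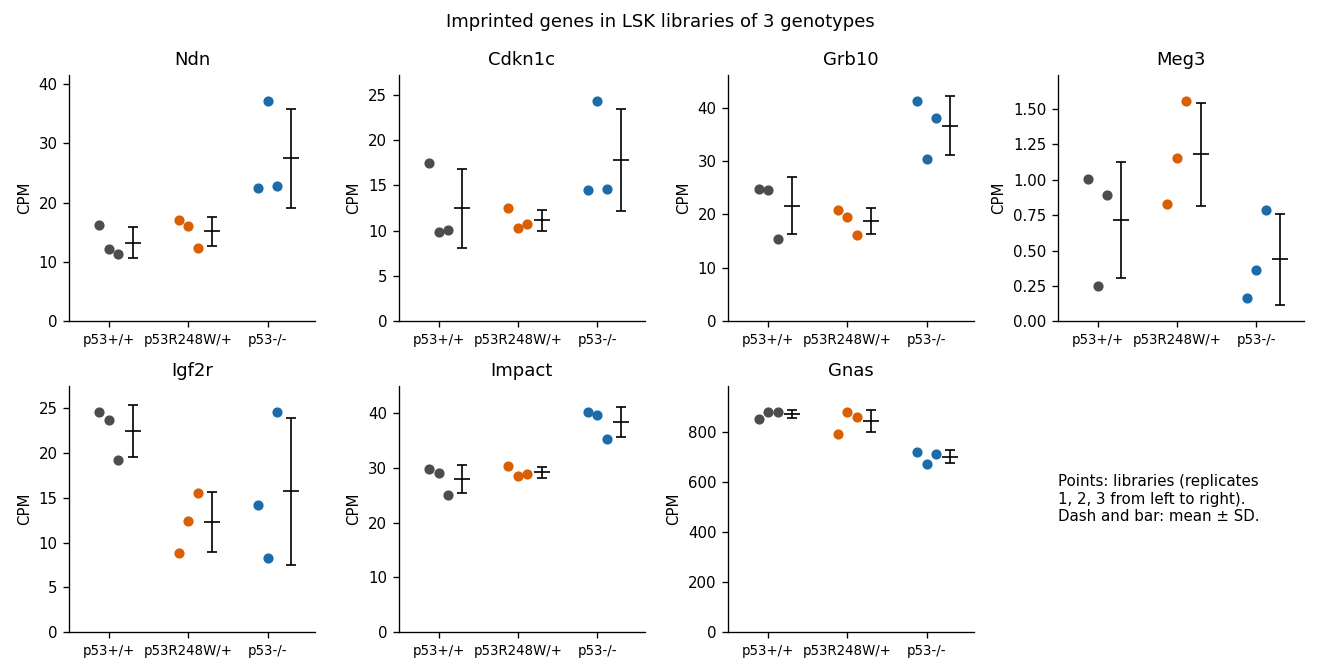
CPM (y axis, from 0) of the 7 imprinted genes in each library (points) of the 3 genotypes (x axis), with the mean ± SD of 3 libraries beside them. For Ndn, Grb10, and Impact every p53-/- point lies above the other 6, for Gnas every p53-/- point lies below them, and for Igf2r the p53R248W/+ points lie below the p53+/+ points.

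Counted over the genes, the comparisons gave the following. For p53-/- against p53+/+, 4 of the 7 genes had libraries that did not overlap (Ndn, Grb10, and Impact above, Gnas below), where 31.4% of all genes tested did not overlap. None was called by edgeR, which called 3.50% of all genes, and 4 had an unadjusted p below 0.05, as did 23.4% of all genes. DESeq2 called 2 (Ndn and Grb10) and 12.6% of all genes, and limma-voom called 0 of the 7 and 2.35% of all genes. The median log2 fold change over the 7 was 0.46, with 4 positive and 3 negative.

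For p53R248W/+ against p53+/+, Igf2r was the 1 gene of 7 without overlap, against 5.04% of all genes. edgeR, DESeq2, and limma-voom each called 0 of the 7, and 1 had an unadjusted p below 0.05. Over the whole table edgeR called 0.00792% of genes, which is 1 gene, DESeq2 0.0476%, and limma-voom 0.00792%. The median log2 fold change over the 7 was -0.05, with 3 positive and 4 negative.

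For p53R248W/+ against p53-/-, 6 of the 7 genes did not overlap, against 24.2% of all genes, and Igf2r was the exception. Grb10 alone was called, where 3.44% of all genes were called. DESeq2 called 2 of the 7 and 10.5% of all genes, and limma-voom called 0 of the 7 and 2.64% of all genes. This comparison shares its p53-/- libraries with the p53-/- against p53+/+ comparison, so that the pair are not separate evidence. Markers of mature blood cells, of which 11 of 16 had a row, moved along with it: their summed level was 3934 to 7181 CPM in p53R248W/+, 2323 to 4736 CPM in p53+/+, and 1596 to 1978 CPM in p53-/- LSKs. Of these, Mpo (1.76) and Nkg7 (0.69), made by granulocyte precursors and cytotoxic lymphocytes, were called higher in p53R248W/+ LSKs. Their part in the result for Grb10 was not tested.

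**Figure D2:**
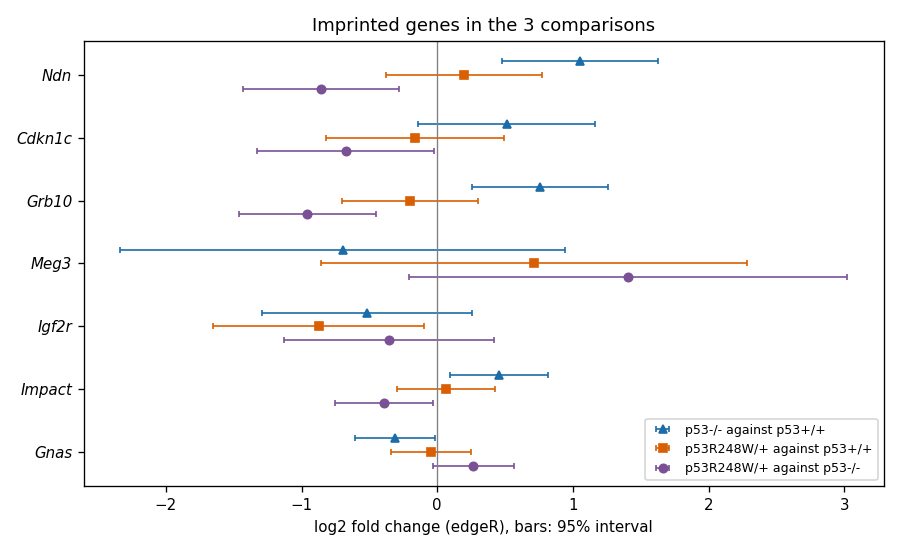
Log2 fold changes from edgeR (x axis) of the 7 imprinted genes (y axis) in the 3 comparisons, with 95% intervals not adjusted for multiple tests as bars. Intervals for p53R248W/+ against p53+/+ include 0 for all genes except Igf2r, at -0.87, and for p53-/- against p53+/+ they lie above 0 for Ndn, Grb10, and Impact.

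Beyond these genes, 38 of a further 71 imprinted genes had a row. In p53-/- against p53+/+ LSKs, 2 of the 38 were called higher and 1 was called lower, where edgeR called 3.50% of all genes. Of their log2 fold changes 24 were positive (median 0.12), against 49.9% positive and a median of -0.00125 over all genes. The lower one was Kcnq1ot1, the paternally expressed antisense RNA that silences the Cdkn1c domain in cis. It had 51.3, 89.2, and 97.8 CPM in p53+/+, 32.6, 90.8, and 100.1 CPM in p53R248W/+, and 14.5, 23.1, and 21.998 CPM in p53-/- LSKs. The p53-/- libraries lay below all others, and the log2 fold change against p53+/+ was -2.00 (SE 0.39, adjusted p = 0.0248, edgeR), the call being lost without p53+/+ replicate 2 (adjusted p = 0.0731), p53+/+ replicate 3 (0.121), or p53-/- replicate 1, 2, or 3 (0.093, 0.0739, and 0.0664). In these 5 fits the log2 fold change was -1.80 to -2.12, and calls over all genes were 37 to 103, against 442 with every library.

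The genes that rose were Cd81 and Blcap. Cd81 encodes a tetraspanin of the cell surface and lies 390.0 kb from Cdkn1c. It had 464, 374, and 384 CPM in p53+/+, 445, 353, and 378 CPM in p53R248W/+, and 611, 687, and 614 CPM in p53-/- LSKs (log2 fold change 0.65 against p53+/+, SE 0.16, adjusted p = 0.0497, edgeR). For Blcap the log2 fold change was 0.69 (SE 0.17, adjusted p = 0.0481, edgeR). Both calls sat at the threshold and were lost with limma-voom (adjusted p = 0.0547 for Cd81 and 0.0559 for Blcap). The call of Cd81 was lost without p53+/+ replicate 2 or 3, p53R248W/+ replicate 2 or 3, or any p53-/- replicate (adjusted p from 0.0673 to 0.187), and that of Blcap without any of these or p53+/+ replicate 1 (0.0531 to 0.177). For Sgce, which encodes epsilon-sarcoglycan, the log2 fold change was 0.87 (adjusted p = 0.0503, edgeR). For p53R248W/+ against p53-/-, Kcnq1ot1 was higher (log2 fold change 1.90, adjusted p = 0.0273, edgeR) and Cd81 lower (-0.70, adjusted p = 0.0386), with p53R248W/+ replicate 1 standing apart at 32.6 CPM for Kcnq1ot1. These calls were lost without p53R248W/+ replicate 2 or 3 or any p53-/- replicate (adjusted p from 0.071 to 0.101 for Kcnq1ot1 and from 0.0925 to 0.167 for Cd81), and that of Cd81 also without p53+/+ replicate 2 (0.0573) or 3 (0.0541). Between p53R248W/+ and p53+/+ LSKs edgeR, DESeq2, and limma-voom each called 0 of the 38, and 0 had an unadjusted p below 0.05.

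The neighbours of Cdkn1c within 1 Mb did not share a sign. For p53-/- against p53+/+, those with a row were positive except Kcnq1ot1 and Nap1l4, the latter within its SE of 0. Slc22a18, at 12.7 kb, had a log2 fold change of 0.57 (adjusted p = 0.224, edgeR), and Phlda2, at 40.5 kb, had 1.14 (adjusted p = 0.163). Nap1l4, at 52.5 kb, had -0.07 (SE 0.15, adjusted p = 0.822). Tspan32 had 0.48 (adjusted p = 0.178), Osbpl5 0.36 (adjusted p = 0.417), and Tssc4 0.16 (adjusted p = 0.672). Near Ndn, Mkrn3 had 0.59 (adjusted p = 0.449) and Peg12 had -0.14 (adjusted p = 0.832).

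**Figure D3:**
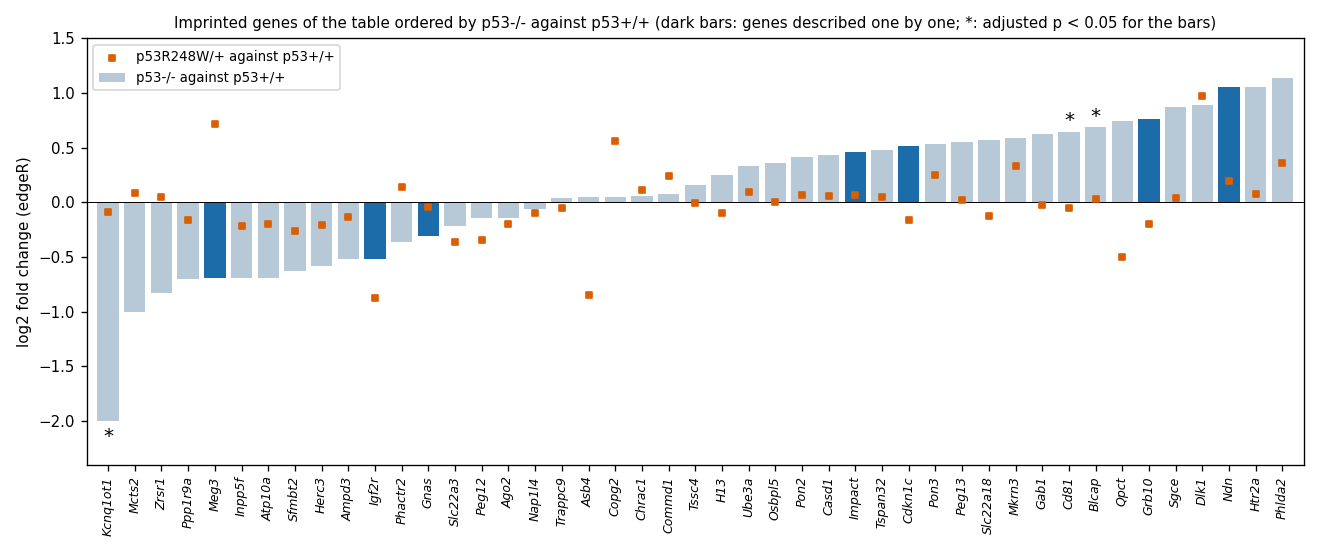
Log2 fold changes from edgeR (y axis) of the 45 imprinted genes with a row, ordered by p53-/- against p53+/+ (bars, dark for the 7 described one by one), with p53R248W/+ against p53+/+ as squares. Kcnq1ot1 is the lowest bar at -2.00, Ndn is among the 3 highest bars at 1.05, and asterisks mark the bars with an adjusted p-value below 0.05 (Kcnq1ot1, Cd81, and Blcap).

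The proteins that read and keep imprints were examined beside them. Of 17 such genes 14 had a row, and for p53-/- against p53+/+ all 14 log2 fold changes were negative (median -0.52). Only Arid4b was called (-1.16, SE 0.25, adjusted p = 0.034, edgeR), where edgeR called 3.50% of all genes. Arid4b encodes a chromatin protein and had 56.8, 73.7, and 67.7 CPM in p53+/+ and 23.6, 40.8, and 24.4 CPM in p53-/- LSKs. Arid4b was also called higher in p53R248W/+ than in p53-/- LSKs (1.21). Dnmt1, the maintenance DNA methyltransferase, had a log2 fold change of -0.92 (SE 0.30, adjusted p = 0.101), Ctcf had -0.68 (SE 0.18, adjusted p = 0.0551), and Zfp57 had -0.12 (SE 0.49, adjusted p = 0.906).

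Within the MAGE family, to which Ndn belongs, 4 of 6 other members had a row. Of these, 2 were called higher in p53-/- than in p53+/+ LSKs, where edgeR called 3.50% of all genes. Magee1 had 7.4, 11.1, and 7.1 CPM in p53+/+, 8.3, 8.8, and 10.5 CPM in p53R248W/+, and 23.7, 18.3, and 19.1 CPM in p53-/- LSKs (log2 fold change 1.25 against p53+/+, SE 0.26, adjusted p = 0.0285, edgeR). Mageh1 had a log2 fold change of 1.25 as well (SE 0.28, adjusted p = 0.0371, edgeR). The p53-/- libraries lay above the other 6 for both genes, as they did for Ndn. Magee1 was also called lower in p53R248W/+ than in p53-/- LSKs (-1.15). Maged1 had a log2 fold change of 0.46 (adjusted p = 0.198, edgeR). Of the relatives of Plagl1, Plag1 had 0.93 and Plagl2 0.10, and neither was called.

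Lists of stem cell quiescence and of proliferation genes were read in the same libraries. All 23 genes of a quiescence list had a row. Of these, 3 were called higher in p53-/- than in p53+/+ LSKs (Txnip 1.37, Hlf 1.14, and Ptgs1 0.97), where 3.50% of all genes were called. Of the 23 log2 fold changes 16 were positive and 7 negative. The summed level of the 23 genes was 3346 to 4186 CPM in p53-/-, 1628 to 2955 CPM in p53+/+, and 1981 to 2687 CPM in p53R248W/+ LSKs. Txnip weighed on this sum, with means of 1135 CPM in p53-/-, 438 CPM in p53+/+, and 548 CPM in p53R248W/+ LSKs. All 22 proliferation genes had negative log2 fold changes for p53-/- against p53+/+. Mki67 (-2.34, adjusted p = 0.0255, edgeR), Top2a (-1.64, adjusted p = 0.0234), and Kif11 were called lower, where 3.50% of all genes were called. The summed level of the 22 was 3957 to 5711 CPM in p53-/-, 5641 to 7068 CPM in p53+/+, and 5682 to 6419 CPM in p53R248W/+ LSKs. By this sum p53-/- replicate 1 overlapped the other genotypes. The paper reports lower quiescence among LSKs without p53, from Ki67 and DAPI staining by flow cytometry. The lists here hold RNA levels and do not measure the share of quiescent cells. For p53R248W/+ against p53-/-, quiescence genes called lower included Hlf (-1.41), Ptgs1 (-1.20), Cited2 (-0.87), and Meis1 (-0.74). Mki67 (2.28), Top2a (1.72), and Kif11 (1.70) were called higher. In this comparison edgeR called 3.44% of all genes. Mki67 in p53R248W/+ replicate 1 was 28.2 CPM against 124 and 134 CPM in replicates 2 and 3. For p53R248W/+ against p53+/+, 12 of the 22 were positive and the median was 0.05.

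**Figure D4:**
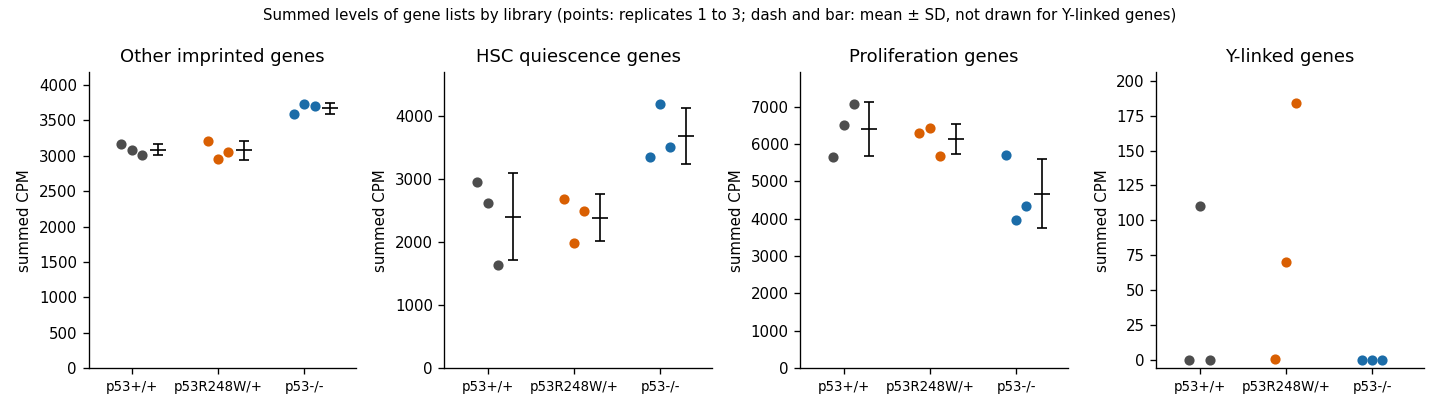
Summed CPM (y axis) by library (points) of 38 other imprinted genes, 23 quiescence genes, 22 proliferation genes, and Y-linked genes in the 3 genotypes (x axis), with mean ± SD except for the last. The p53-/- libraries lie above all others for the 38 other imprinted genes (3586 to 3731 CPM against 2958 to 3216 CPM) and the quiescence genes. Their Y-linked level is near 0. Cd81 and Tspan32 weigh on the imprinted sum, with means of 637 and 703 CPM in p53-/- against 407 and 504 CPM in p53+/+ LSKs. The summed level of the 7 imprinted genes described singly, not shown, goes the other way. It is 811 to 851 CPM in p53-/-, 961 to 978 CPM in p53+/+, and 882 to 966 CPM in p53R248W/+ LSKs. Much of that level is Gnas.

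Every p53-/- library lacked Y-linked counts and some libraries of the other genotypes held them, so that sex was not balanced between genotypes. Among the 6 libraries without Y-linked counts (p53+/+ replicates 1 and 3, p53R248W/+ replicate 1, and all p53-/- replicates), the log2 fold change for p53-/- against p53+/+ was 1.00 for Ndn (adjusted p = 0.121, edgeR), 0.86 for Grb10 (adjusted p = 0.123), 0.59 for Cd81 (adjusted p = 0.121), 0.65 for Blcap (adjusted p = 0.134), and -1.91 for Kcnq1ot1 (adjusted p = 0.0108), which alone of these was called. For Kcnq1ot1 in p53R248W/+ against p53-/- it was 0.70 (adjusted p = 0.403), the 1 remaining p53R248W/+ library being replicate 1. Markers of stromal cells were sparse, with 10 of 14 without a row. Those of endothelial cells summed to 90.5 to 132 CPM in p53-/-, 154 to 205 CPM in p53+/+, and 135 to 204 CPM in p53R248W/+ LSKs. Much of this sum was Pecam1, an adhesion molecule of endothelium and blood cells. Its means were 63.1 CPM in p53-/-, 123 CPM in p53+/+, and 132 CPM in p53R248W/+ LSKs. For p53-/- against p53+/+, 5 of the 7 endothelial markers with a row had negative log2 fold changes and 2 positive, with 0 called. For p53R248W/+ against p53-/-, where 3.44% of all genes were called, Col1a2, a collagen gene of stromal cells, was called lower (-2.44). Its mean was low, at 1.27 CPM in p53R248W/+ and 6.94 CPM in p53-/- LSKs. Pecam1 was called higher (1.06). In this comparison 3 of the 7 endothelial markers had positive and 4 had negative log2 fold changes. Of the 4 stromal markers 1 was positive and 3 were negative. The part of stromal and endothelial cells in these results was not tested.

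The members followed each other to different degrees over the 9 libraries, and the values are given as a description, since libraries of the same genotype are grouped in them and all genes of a library share its depth. On log2 CPM, Pearson's r was 0.90 between Ndn and Impact, 0.88 between Grb10 and Impact, and 0.87 between Ndn and Cdkn1c, and it was -0.93 between Ndn and Gnas. Igf2r stood aside, with r of 0.07 to Grb10 and -0.48 to Ndn. Among 11484 genes of at least 1 on the average log2 CPM scale, the profiles most like Ndn were those of Ppt2 (0.98), Amz2 (0.97), and Zkscan14 (0.97), and those most like Cdkn1c were Mterf4 (0.97), Tmem121 (0.97), and Abhd6 (0.97). For Grb10 they included Cpeb4 (0.98) and Hiatl1 (0.98), and for Impact Tti2 (0.99) and Zfp954 (0.99). For Gnas they were Kcng1, Kif4, and Blm (0.99 each), and for Igf2r Otud6b (0.94), Diras2 (0.92), and Ctse (0.91).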

How the data were processed

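RNA-seq of LSKs was analysed in 9 libraries, 3 per genotype. The H3K27me3 ChIP-seq samples were not analysed here. The authors deposited raw counts (whole numbers, not normalized) of reads by gene, with a lowest gene total of 37. The submitters' processing notes name STAR 2.5.2b, featureCounts, Subread 1.5.0, edgeR, and mm10. Columns of the authors' own comparisons in the same table (fold changes and their significance) were not used. Whether counting used strand is not given in the sources used here. RPKM was computed from the counts and the deposited gene length.

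edgeR 4.0.16 in R 4.3.3 was used with filterByExpr by genotype, TMM factors, and 1 quasi-likelihood fit to all 9 libraries, in which the biological coefficient of variation was 0.281. Adjustment was over 12625 genes. The fits were tested on simulated data. Totals of 18021375 to 29750702 counts limit the precision for genes near 1 CPM. The results for the imprinted genes were recomputed with each library left out, with a threshold of 0.1, with 6 libraries only, and with a replicate block. They were also recomputed with a strict filter (10 counts or more throughout) or none, with other size factors, and with limma-voom (limma 3.58.1) or DESeq2 1.42.0. Libraries without Y-linked counts were fitted alone, which was chosen after seeing the data. Calls of single genes from the other lists were not recomputed in any of these fits. Correlations used log2(CPM + 0.5). Positions are from GENCODE M21 on GRCm38, the assembly of mm10. Promoter sequences are from RefSeq. No entry of the promoter table was used for Cdkn1c or Impact.

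The genes and lists were chosen with earlier results of these data known. All 7 genes with a row are described. From each other list the text names the called genes, up to 6 by size of log2 fold change, or up to 3 abundant genes where none was called. Genes named without a call from lists that hold a call (Cdkn1b, Cdkn2c, Cdkn2d, Igf1, Igf1r, Dlk1, Sgce, Dnmt1, Ctcf, Zfp57, Maged1, and the neighbours of Cdkn1c and Ndn) were chosen after their values were seen. The most correlated genes, up to 3, are given for each member of at least 1 CPM. A few genes that these rules would name are not reported here.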

Additional observations from a re-analysis of the deposited data

How the results depend on the processing

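For p53-/- against p53+/+ 0 of the 7 genes were called, and 2 with an adjusted p below 0.1, 2 with DESeq2, 1 with a strict filter (Ndn), 1 with the replicate block (Ndn, adjusted p = 0.035), and 1 with a fit to 6 libraries only (Ndn). Leaving out 1 library gave 0 to 2. Of the 38 other imprinted genes 3 were called, and 5 with an adjusted p below 0.1, 5 with DESeq2, and 1 each with limma-voom, upper-quartile factors, and the libraries without Y-linked counts, with 0 to 5 on leaving out 1 library. For p53R248W/+ against p53-/- 1 of the 7 was called, and 2 with an adjusted p below 0.1 and with DESeq2, and 0 with limma-voom, 6 libraries only, and the libraries without Y-linked counts, with 0 to 1 on leaving out 1 library. Of the other imprinted genes 2 were called, and 4 with an adjusted p below 0.1 and with DESeq2, 1 with limma-voom and with 6 libraries only, and 0 in the libraries without Y-linked counts, with 0 to 7 on leaving out 1 library. The highest counts came without p53R248W/+ replicate 1, when calls over all genes rose from 442 to 1485 and from 434 to 1559. On leaving out another library they were 37 to 499 and 77 to 380. For p53R248W/+ against p53+/+ all these counts were 0 under every alternative run.

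Between p53R248W/+ and p53+/+ the sign of small log2 fold changes turned in the libraries without Y-linked counts for Grb10 (0.032), Meg3 (-0.21), and Cd81 (0.054). It turned on leaving out 1 library for Impact (-0.0075 to 0.11), Cdkn1c (-0.31 to 0.16), Blcap (-0.031 to 0.12), Cd81 (-0.17 to 0.048), and Kcnq1ot1 (-0.36 to 0.26), and for Igf2r between p53R248W/+ and p53-/- (-0.66 to 0.12). The causes were not tested. Replicate numbers were not taken as pairs: same-numbered p53+/+ and p53R248W/+ libraries correlated at 0.474, 0.616, and 0.0382 in their deviations, each p53+/+ library best with its own number, and pairs with p53-/- at -0.166 to 0.222. If p53-/- libraries were prepared apart from the others, this could not be told apart from genotype. With the replicate block, calls among the other imprinted genes were 4 for p53-/- against p53+/+ and 3 for p53R248W/+ against p53-/-. Meg3 was not tested under the strict filter.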
